A study of Rattus norvegicus with 4 samples.

Results

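The cytochrome P450 genes described here are the 72 features, of 32402 in the count tables, whose symbol starts with Cyp followed by a family number, a subfamily letter and a gene number, without Cyp24a1, Cyp27b1, Cyp4a1 and Cyp2c11, which the rule leaves out. They carry 69 symbols: Cyp4a2 stands for 2 features and Cyp4f37 for 3, and each feature was kept apart by its Ensembl identifier. Of the 72, 28 had at least 200 unique molecular identifiers (UMIs, counted molecules) in at least 1 section and are described by name, 7 had fewer than 200 but at least 20 in their best section, 16 had 1 to 19 and 21 had none in any section. The rule used names and no measured value.

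Cytochromes P450 are haem enzymes that insert oxygen into fatty acids, steroids, bile acid precursors, retinoids and foreign compounds, with electrons passed on by NADPH-cytochrome P450 reductase or, in mitochondria, by ferredoxin. The kidney carries few of the drug-metabolising enzymes of liver, but its proximal tubule is rich in fatty acid hydroxylases of family 4 and in epoxygenases of family 2, which turn arachidonic acid into products that act on tubular transport and vascular tone. Enzymes of family 1 are known for their induction through the aryl hydrocarbon receptor.

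The study placed 1 kidney section from each of 4 Sprague-Dawley rats on Visium slides, which capture polyadenylated RNA on an array of barcoded spots, each covering a small area that can hold several cells. One rat was healthy and untreated. The PAN rat was injected with puromycin aminonucleoside, a podocyte toxin used to model glomerular disease, and fed ad libitum. The PAN plus LS-FMD rat was injected and then went through 6 rounds of LS-FMD, a diet low in salt that mimics fasting, and by the design text the injected rats were analysed 6 weeks after treatment and 5 months after the injection. The healthy plus LS-FMD rat was not injected, received 1 cycle of the diet and was analysed after 72 h of refeeding, so the diet differs in cycles and timing between the injected and the uninjected rat. Sex and age are not stated in the labels. With 1 section per group no difference between animals can be tested: the intervals given are exact 95% Poisson intervals, or the exact conditional interval of a ratio of 2 counts, and cover counting error only.

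The sections held 2187 to 2866 spots of at least 500 UMIs and 24924170 (PAN) to 58568499 (healthy) UMIs, with a median of 8482 to 19531 UMIs per spot; 1650 to 2279 spot barcodes, which are array positions, were shared between any 2 sections. Levels are counts of UMIs per 1000000 UMIs of the section, zone or region (CPM). A count of 0 allows a level of up to 0.0512 to 0.120 CPM in a whole section. Haemoglobin transcripts took 1.59% of UMIs in the healthy section and 0.161% to 0.234% in the others, and the healthy section was counted with Space Ranger 2.0.1 and the other 3 with 1.2.1, so software version and that section cannot be told apart. All 6 markers of the last proximal tubule segment (S3) were present in every section, and of 7 podocyte markers Synpo alone was at 0, in the healthy plus LS-FMD and PAN sections. In the PAN section 6 tubular injury markers summed to 17700 CPM, of which Spp1 held 17165 CPM, against 265 to 1341 in the others. Havcr1, Lcn2 and Vcam1 stood at 219, 222 and 94.2 CPM there, against at most 8.43, 15.9 and 27.7 CPM in the others. Krt19 and Krt20 of the injury list were at 0 in the PAN section. The S3 markers summed to 2407 CPM in the PAN section, against 7901 to 8751 CPM in the others. The median log2 fold over all features tested was 0.51 for PAN over healthy, -0.37 for PAN plus LS-FMD over PAN, 0.11 for PAN plus LS-FMD over healthy and 0.33 for healthy plus LS-FMD over healthy; scaling by the median of ratios moves these by -0.55, 0.42, -0.12 and -0.35. In whole sections, fewer cells of a type and less RNA per cell cannot be told apart.

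Together the 72 members took 11880 CPM, or 1.19% of all UMIs, in the healthy section, 7171 CPM (0.717%) in the healthy plus LS-FMD section, 7712 CPM (0.771%) in the PAN section and 15505 CPM (1.55%) in the PAN plus LS-FMD section. The untreated and the injected, dieted rat had the higher levels, and the rats with diet alone or injury alone the lower ones. One Cyp4a2 feature (ENSRNOG00000030154) held 71.3%, 66.0%, 62.1% and 73.6% of the members' UMIs in that order, Cyp2c23 11.5%, 11.4%, 14.3% and 13.6%, and Cyp4a8 3.70%, 7.66%, 12.5% and 4.25%. These are shares of counted molecules and not of transcripts present, since capture can differ between genes. Without that Cyp4a2 feature the members summed to 3405, 2441, 2921 and 4087 CPM, so the sections differed less than in the full sum.

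**Figure D1:**
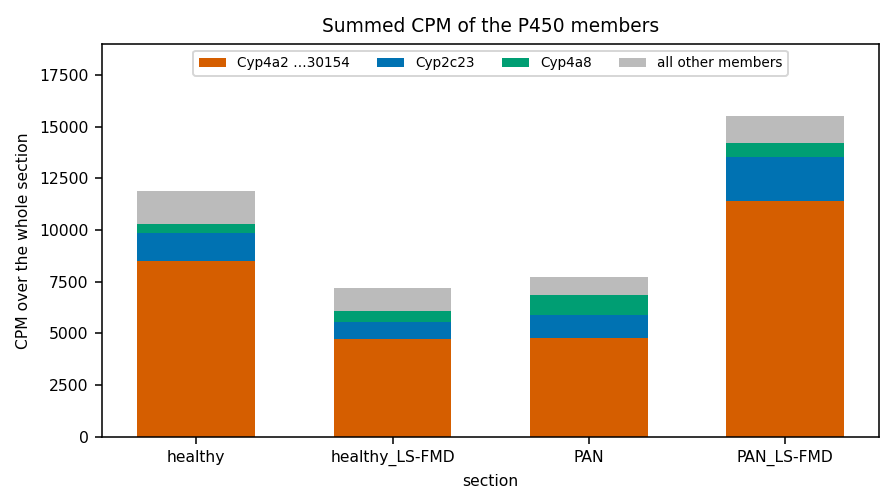
Summed level of the 72 P450 members in each section, in CPM, stacked as Cyp4a2 (ENSRNOG00000030154), Cyp2c23, Cyp4a8 and all other members. The stack reaches 11880 CPM in the healthy section, 7171 and 7712 CPM in the healthy plus LS-FMD and PAN sections, and 15505 CPM in the PAN plus LS-FMD section.

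**Figure D2:**
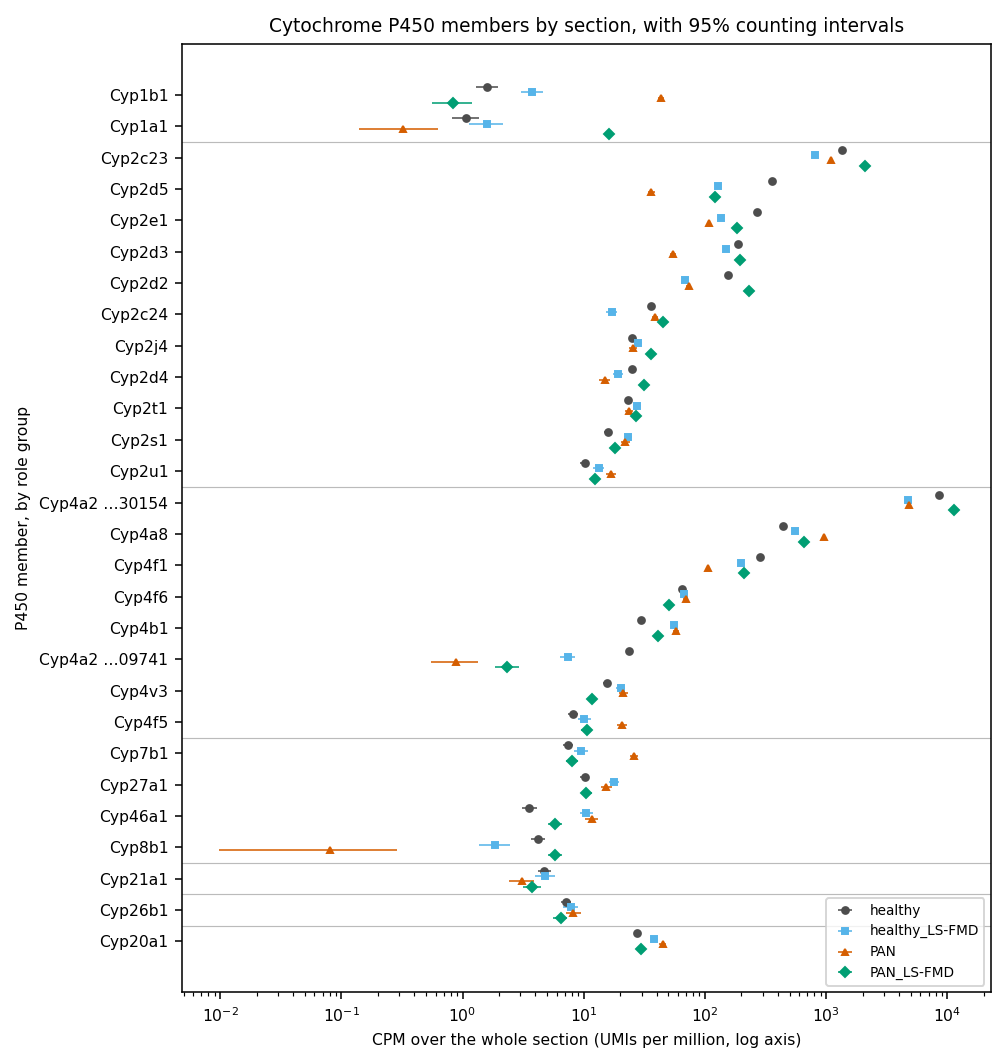
Whole-section level of each of the 28 named members in the 4 sections, in CPM on a log axis, with exact 95% Poisson intervals (counting error only, 1 section per group). Most members lie within a few-fold over the sections, while Cyp1b1, Cyp1a1, Cyp8b1, the lesser Cyp4a2 feature and Cyp2d5 spread widest.

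Place in the kidney was read from zones. Spots of each section were clustered without any Cyp feature, and each cluster, called a region, was assigned to cortex, outer stripe, medulla or a blood-rich zone by whichever of 8 lists (7 of kidney segments and 1 of red blood cells) scored highest in it. In 5 of the 54 regions a list that gives no zone scored higher still, such as fibroblast and matrix in PAN region 1 and smooth muscle in healthy region 15. The zones are therefore built from markers, not from histology. Among cortex, outer stripe and medulla, 10 of the 28 named members were highest in the outer stripe, where S3 markers lead, in all 4 sections: Cyp2c24, Cyp2j4, Cyp4a8, Cyp4a2 (ENSRNOG00000030154), Cyp4f1, Cyp2d3, Cyp2d4, Cyp2d5, Cyp8b1 and Cyp21a1. Cyp2c23 and Cyp26b1 were highest in the cortex in all 4, and Cyp2s1, Cyp46a1, Cyp27a1 and Cyp4v3 in the medulla; the other 12 changed zone between sections. The small blood-rich zone, left out of this order, lay above the outer stripe for 2 of the 10, Cyp2c24 (31.3 against 26.99 CPM) and Cyp8b1 (4.89 against 2.87 CPM), in the healthy plus LS-FMD section. The summed members had their highest level in the outer stripe in each section (13517, 9775, 9657 and 17514 CPM in the healthy, healthy plus LS-FMD, PAN and PAN plus LS-FMD sections) and in 3 of the 4 their lowest in the medulla. The exception was the PAN plus LS-FMD section, where the medulla reached 13882 CPM and the blood-rich zone 12868 CPM. S3 markers summed to 9941 CPM in that medulla zone and 11810 CPM in the outer stripe of the same section. In the medulla of the healthy, healthy plus LS-FMD and PAN sections they summed to 7765, 4757 and 1747 CPM. Their part in the medullary P450 level was not tested.

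**Figure D3:**
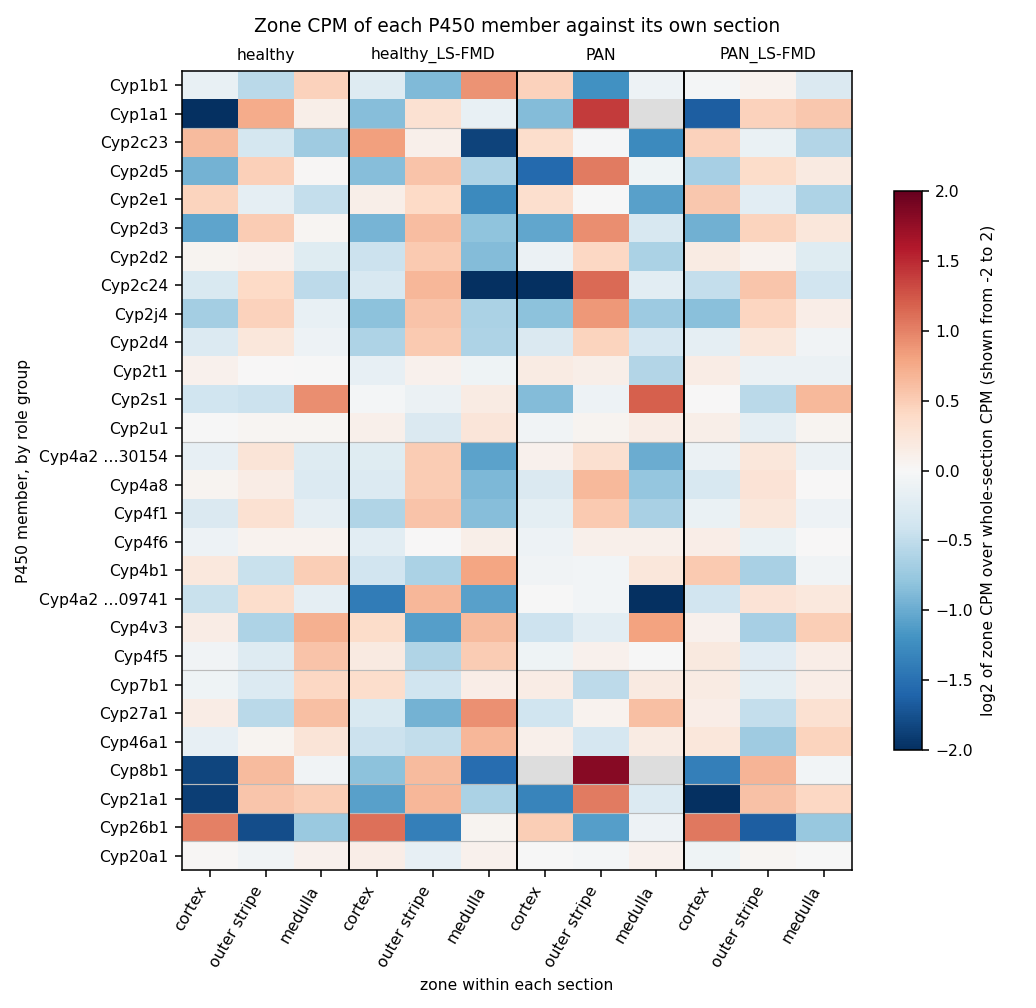
Level of each named member in cortex, outer stripe and medulla of each section, as log2 of the zone's CPM over the whole section's CPM (colour scale from -2 to 2, grey for 0 UMIs). Cyp2d5, Cyp2d3 and Cyp21a1 have their highest level in the outer stripe in all 4 sections, and Cyp26b1 and Cyp2c23 in the cortex.

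In the PAN section against the healthy section, the P450 genes split. Cyp1b1, an oestrogen- and hydrocarbon-oxidising enzyme, was 27.2-fold higher, Cyp7b1, an oxysterol hydroxylase, 3.47-fold higher and Cyp4a8, a fatty acid hydroxylase, 2.19-fold higher. Cyp8b1, the sterol hydroxylase that directs bile acid synthesis to cholic acid, was 52.6-fold lower, Cyp2d5 9.89-fold lower, Cyp2d3 3.43-fold lower, Cyp4f1 2.68-fold lower and Cyp2e1, which oxidises ethanol, 2.47-fold lower. A feature counts here as higher or lower where it had at least 20 UMIs over both sections, differed by 1.5-fold or more and its counting interval excluded 1. Of the 72 members 36 had enough UMIs, which a member can reach through 1 section alone: 13 were higher, where 44.3% of all features tested were, and 14 lower, where 9.85% of all features were. In the cortex 10 of 33 were higher (40.6% of all features) and 11 lower (10.3%), and in the outer stripe 15 of 32 were higher (45.1%) and 9 lower (9.17%). The members' median log2 fold was 0.07, against 0.51 over all features. By family, 2 of 15 members of family 2 were higher and 7 lower, 4 of 9 of family 4 were higher and 3 lower, and 3 of 5 of the bile acid and cholesterol group were higher and 2 lower.

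Scaling by the median of ratios, which takes away most of the shift of all features, left 7 members higher in the whole section: Cyp4a8 (log2 fold 0.58), Cyp4b1 (0.41), Cyp2u1 (0.18), Cyp20a1 (0.15), Cyp27a1 (0.05) and Cyp2j10 (0.59, its interval including no change) were no longer called, and Cyp2c23 (-0.86) and Cyp2r1 (-0.83) were called lower. Cyp1b1, Cyp7b1, Cyp11a1, Cyp26a1, Cyp46a1, Cyp4f5 and Cyp4f18 stayed called higher under it. With the healthy plus LS-FMD section as the reference, Cyp4a2 (ENSRNOG00000030154) was 1.01-fold, Cyp2d2 1.08-fold and Cyp2c23 1.35-fold of it in the PAN section, Cyp46a1 1.10-fold and Cyp27a1 0.865-fold, while Cyp1b1 was 11.7-fold higher, Cyp2d5 3.54-fold lower and Cyp8b1 23.1-fold lower. Cyp4a2, Cyp2d2, Cyp46a1 and Cyp27a1 thus passed the 1.5-fold rule against the untreated section alone, and Cyp1b1, Cyp2d5 and Cyp8b1 against both uninjected ones.

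In the PAN plus LS-FMD section against the PAN section, Cyp8b1 was 72.4-fold higher, Cyp1a1, the classic target of the aryl hydrocarbon receptor, 49.9-fold, Cyp2d3 3.58-fold, Cyp2d5 3.34-fold, Cyp2d2 3.16-fold and Cyp4a2 (ENSRNOG00000030154) 2.38-fold. Cyp1b1 was 52.7-fold lower, Cyp7b1 3.23-fold lower and Cyp46a1, a cholesterol hydroxylase known from brain, 2.004-fold lower. Of 35 members tested 13 were higher, where 9.67% of all features were, and 10 lower, where 35.5% of all features were. In the cortex 13 of 34 were higher (10.3% of all features) and 6 lower (26.7%), and in the outer stripe 11 of 31 were higher (8.71%) and 14 lower (40.9%). In family 2, 7 of 14 were higher and 1 lower. The members' median log2 fold was 0.19, against -0.37 over all features, and this comparison shares the PAN section with the one above, so the same PAN counts enter both. Under the median of ratios Cyp1b1, Cyp7b1 and Cyp11a1 remained called lower, and Cyp46a1 (-0.58), Cyp4f5 (-0.55), Cyp4v3 (-0.44), Cyp26a1 (-0.51), Cyp20a1 (-0.16), Cyp2j10 (-0.65) and Cyp4f18 (-1.39) were not. Called higher under it alone were Cyp2j4 (0.93), Cyp2r1 (0.90), Cyp21a1 (0.71), Cyp2c24 (0.63) and Cyp2t1 (0.61).

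Set against the healthy section, the PAN plus LS-FMD section differed in fewer members. Cyp1a1 was 15.1-fold higher, Cyp11a1, which cleaves the cholesterol side chain, 4.36-fold, Cyp26a1 1.95-fold, Cyp46a1 1.63-fold, Cyp2c23 1.54-fold, and Cyp2d2 and Cyp4a8 1.501-fold each. The lesser Cyp4a2 feature was 10.0-fold lower, Cyp2d5 2.96-fold, Cyp2b1 2.87-fold, Cyp1b1 1.94-fold and Cyp2f4 1.86-fold. That makes 7 of 36 higher, where 6.8% of all features were, and 5 lower, where 4.53% were; in the cortex 7 of 34 were higher (10.9%) and 3 lower (3.11%), and in the outer stripe 5 of 33 were higher (4.54%) and 4 lower (4.71%). Under the median of ratios 3 stayed called higher, Cyp1a1, Cyp11a1 and Cyp26a1; Cyp2c23 (0.51), Cyp46a1 (0.58), Cyp2d2 (0.47) and Cyp4a8 (0.47) did not, and Cyp2e1 (-0.65) was called lower.

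In the healthy plus LS-FMD section, after 1 diet cycle without injury, against the healthy section, Cyp2d5 was 2.79-fold lower, Cyp8b1 2.27-fold, Cyp2d2 2.26-fold, Cyp2c24 2.13-fold, Cyp2e1 1.95-fold, Cyp4a2 (ENSRNOG00000030154) 1.79-fold and Cyp2c23 1.68-fold, while Cyp46a1 was 2.95-fold, Cyp1b1 2.34-fold, Cyp39a1 2.19-fold and Cyp4b1 1.88-fold higher. Of 36 tested 7 were higher, where 27.1% of all features were, and 10 lower, where 5.27% were. In the cortex 7 of 31 were higher (25.9% of all features) and 10 lower (6.88%), and in the outer stripe 5 of 33 were higher (15.5%) and 5 lower (4.31%). In family 2, 1 of 15 was higher and 7 lower. This comparison, too, rests on the healthy section. Medulla spots made up 36.4% of this section and 22.3% of the healthy one; S1 and S2 proximal tubule markers summed to 2972 CPM here and 4465 CPM in the healthy section, and S3 markers to 8099 and 7901 CPM. Their part in these differences was not tested. Under the median of ratios Cyp4b1 (0.57), Cyp27a1 (0.46), Cyp11a1 (0.76) and Cyp2j10 (0.67) were no longer called higher, and Cyp2d3 (-0.66), Cyp2d4 (-0.71) and Cyp4f1 (-0.88) were called lower.

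**Figure D4:**
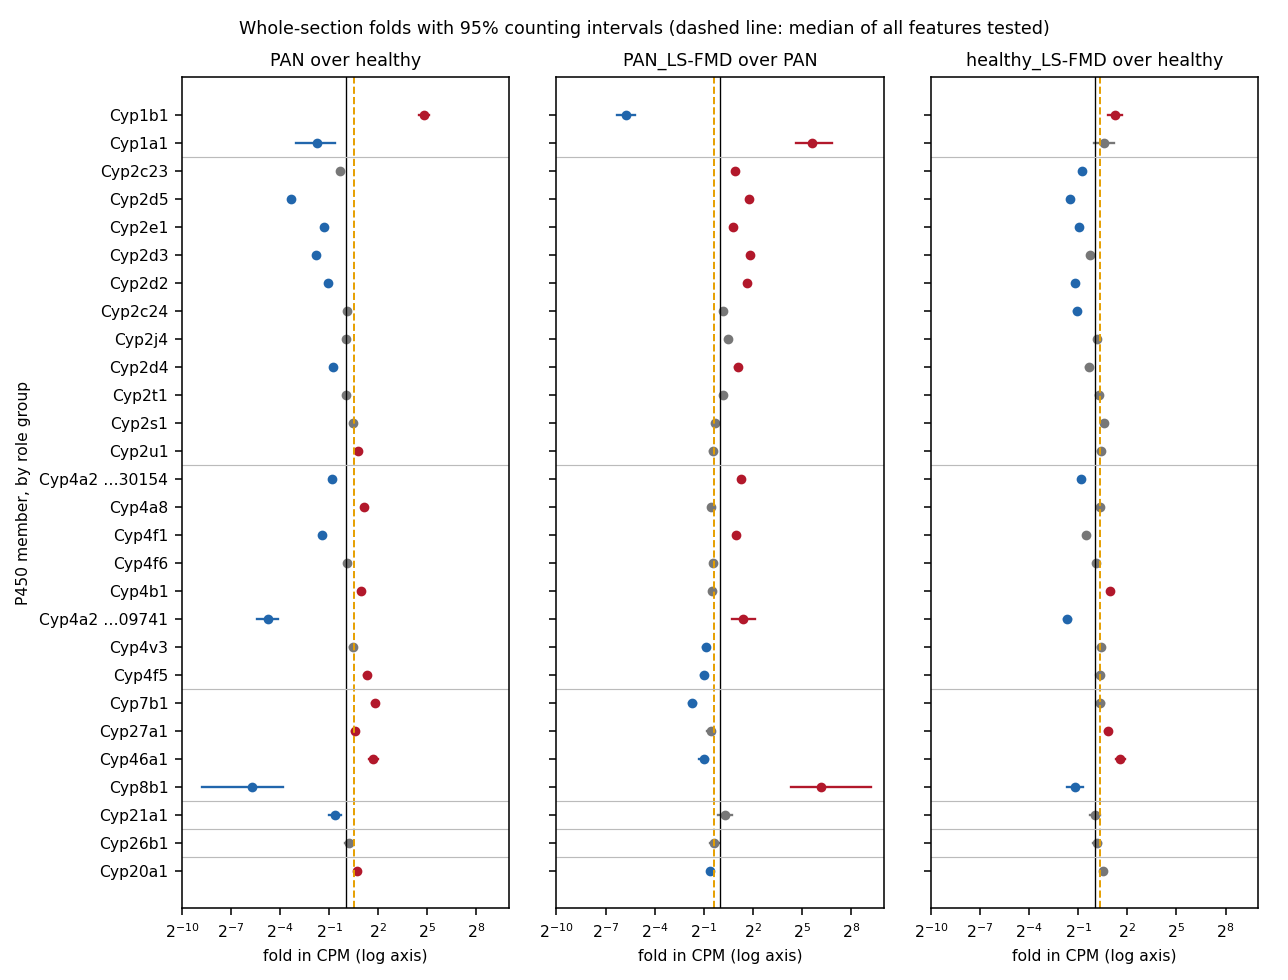
Fold differences of the named members in whole sections on a log axis, for PAN over healthy, PAN plus LS-FMD over PAN and healthy plus LS-FMD over healthy, with exact counting intervals; red marks higher, blue lower, grey neither, and the dashed line is the median of all features tested. Cyp1b1 stands at 27.2-fold in the first panel and at the low end of the second, where Cyp8b1 (72.4-fold) and Cyp1a1 (49.9-fold) lead.

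Family 1 has 3 members, and Cyp1b1 and Cyp1a1 each stood far higher in 1 section than in the others. Cyp1b1 stood at 1.60 CPM (1.30 to 1.96, 94 UMIs) in the healthy section, 3.75 CPM (3.03 to 4.58, 95 UMIs) in the healthy plus LS-FMD section, 43.7 CPM (41.2 to 46.4, 1090 UMIs) in the PAN section and 0.829 CPM (0.555 to 1.19, 29 UMIs) in the PAN plus LS-FMD section. The PAN section lay far above the other 3, whose intervals do not overlap each other either, with the injected rat given the diet lowest. The ratio of PAN to healthy was 27.2 (22.1 to 34.0) over the section, 41.8 (28.7 to 63.4) in the cortex and 17.2 (11.2 to 27.6) in the outer stripe; PAN plus LS-FMD was lower than PAN by 52.7-fold (36.5 to 79.1), 75.0-fold (39.3 to 165) and 21.9-fold (11.9 to 44.9) in the same areas. In the PAN section 781 of 2724 spots held a Cyp1b1 UMI, against 91 of 2866 spots in the healthy section.

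Within the PAN section Cyp1b1 was highest in region 1, a cluster of 397 spots led by Car3, Lum and Postn (the latter 2 encode matrix proteins), at 93.0 CPM (82.0 to 105, 262 UMIs), then in the blood- and smooth-muscle-led region 11 at 87.9 CPM. It was lowest, at 15.8 CPM, in the S3 region 2. Over the 12 regions, which share 1 library and differ in depth, its log level had a correlation of 0.77 with the fibroblast and matrix score and of -0.92 with the S3 score. Fibroblast and matrix markers summed to 2071 CPM in the PAN section and to 315 to 385 CPM in the other 3, with all 6 present in each, macrophage markers to 1215 and 196 to 319 CPM, and smooth muscle markers to 549 and 100 to 158 CPM; their part in the Cyp1b1 level was not tested. In the healthy plus LS-FMD section the highest region was led by thick ascending limb markers, with 9.11 CPM (5.90 to 13.45, 25 UMIs). PAN region 1 was placed in the cortex through distal tubule markers, so the cortical Cyp1b1 value includes it.

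Cyp1a1 stood at 1.06 CPM (0.812 to 1.36, 62 UMIs) in the healthy section, 1.58 CPM (1.13 to 2.15, 40 UMIs) in the healthy plus LS-FMD section, 0.321 CPM (0.139 to 0.632, 8 UMIs) in the PAN section and 16.0 CPM (14.7 to 17.4, 560 UMIs) in the PAN plus LS-FMD section. The PAN plus LS-FMD section was alone at a high level, and the PAN section was lowest. PAN plus LS-FMD was 49.9-fold (25.1 to 116) above PAN and 15.1-fold (11.6 to 20) above healthy; PAN was 3.30-fold (1.57 to 7.98) below healthy. In the PAN plus LS-FMD section 409 of 2187 spots held a Cyp1a1 UMI. Its level was 5.11 CPM in the cortex, 22.1 CPM in the outer stripe and 23.1 CPM in the medulla, a zone rich in S3 markers in this section, as given above. The highest region was the S3 region 3 with 34.1 CPM (29.0 to 39.8, 159 UMIs), next to 28.4 CPM in the principal-cell region 10. The healthy section had its highest Cyp1a1 level in an S3 region too, at 3.19 CPM (2.04 to 4.74, 24 UMIs). Cyp1b1 and Cyp1a1 thus had their highest section and their highest region in different places. Cyp1a2 had 1 UMI in the PAN plus LS-FMD section and none elsewhere.

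Among the regulators of this family, Ahr, the aryl hydrocarbon receptor, stood at 19.7, 16.9, 29.2 and 15.3 CPM in the healthy, healthy plus LS-FMD, PAN and PAN plus LS-FMD sections, and Ahrr, its repressor, at 0.273, 0.0395, 0.762 and 0.572 CPM. Ahr was highest in the PAN section, but short of 1.5-fold above healthy, where the median log2 fold over all features was 0.51. Its lowest values lay close together, on 427 UMIs in the healthy plus LS-FMD and 534 UMIs in the PAN plus LS-FMD section. Ahrr rested on 16, 1, 19 and 20 UMIs in the order given. A link of Ahr or Ahrr to the Cyp1b1 and Cyp1a1 levels was not tested. The promoter of Cyp1b1 is shown because it carries the core letters that the receptor and its partner Arnt are known to bind. Its 250 bases before the start lie at chr6:21094315-21094564 (plus strand, RefSeq, GRCr8), with capitals marking GCGTG on either strand:
Cyp1b1: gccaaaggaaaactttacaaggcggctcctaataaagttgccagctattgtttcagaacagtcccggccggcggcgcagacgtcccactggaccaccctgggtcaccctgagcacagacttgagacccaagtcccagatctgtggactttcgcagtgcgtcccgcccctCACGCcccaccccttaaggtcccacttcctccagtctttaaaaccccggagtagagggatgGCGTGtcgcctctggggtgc

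GCGTG begins 20 bases before the start on the same strand and 81 bases before it on the opposite strand. These letters occur on one strand or the other in 25.9% of the 33469 promoters of this length in the table and in 9 of the 24 named members' symbols found there, so the match is common, and it describes letters and not binding.

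Family 2 holds 31 members, 11 of them named, 4 with fewer than 200 but at least 20 UMIs in their best section, 7 with fewer than 20 and 9 with none. Its summed level was 2468, 1429, 1519 and 3009 CPM in the healthy, healthy plus LS-FMD, PAN and PAN plus LS-FMD sections. Among its named members Cyp2d5, one of the Cyp2d enzymes that oxidise many amine drugs in liver, had the widest range. Cyp2d5 stood at 356 CPM (351 to 360) in the healthy section, 127 CPM (123 to 132) in the healthy plus LS-FMD section, 35.9 CPM (33.6 to 38.4) in the PAN section and 120 CPM (117 to 124) in the PAN plus LS-FMD section. Cyp2d3 stood at 186, 150, 54.2 and 194 CPM and Cyp2d2 at 154, 68.1, 73.3 and 231 CPM in that order. Cyp2d4 stood at 24.9, 19.3, 14.9 and 31.2 CPM. All 4 were lower in the PAN section than in the healthy one and higher in the PAN plus LS-FMD section than in the PAN one, where Cyp2d2, Cyp2d3 and Cyp2d4 were above healthy and Cyp2d5 stayed below it.

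PAN was below healthy by 9.89-fold (9.25 to 10.6) for Cyp2d5, 3.43-fold (3.24 to 3.64) for Cyp2d3, 2.10-fold (2.0 to 2.21) for Cyp2d2 and 1.67-fold (1.49 to 1.88) for Cyp2d4. For Cyp2d5 the difference was 15.1-fold (12.8 to 18.0) in the cortex and 6.69-fold (6.12 to 7.31) in the outer stripe. Its level in the outer stripe was 2.67, 2.70, 6.04 and 2.05 times that in the cortex in the healthy, healthy plus LS-FMD, PAN and PAN plus LS-FMD sections, so the PAN section was the steepest. Cyp2d5 and Cyp2d3 were highest in S3 regions in all 4 sections: Cyp2d5 reached 509 CPM in the healthy section, 194 in the healthy plus LS-FMD, 91.9 in the PAN and 170 in the PAN plus LS-FMD section. Over the 12 to 15 regions of a section the Cyp2d3 level had correlations of 0.94 to 0.98 with the S3 score, and Cyp2d5 of 0.88 to 0.96. S3 markers summed to 11107 CPM in the healthy outer stripe and to 4279 CPM in the PAN outer stripe, with all 6 present; their part in the Cyp2d difference was not tested. The diet in the uninjected rat went with 2.79-fold (2.69 to 2.90) less Cyp2d5 and 2.26-fold (2.15 to 2.39) less Cyp2d2, while Cyp2d3 was 0.807-fold and Cyp2d4 0.774-fold of healthy, short of the 1.5-fold rule.

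Because the 4 Cyp2d genes were lower together in the PAN section, their promoters are shown. They lie in one cluster on the minus strand, at chr7:115784488-115784737 (Cyp2d5), chr7:115802143-115802392 (Cyp2d3), chr7:115819282-115819531 (Cyp2d2) and chr7:115771822-115772071 (Cyp2d4), each the 250 bases before the start from RefSeq (GRCr8), with capitals marking TATAAA on either strand:
Cyp2d5: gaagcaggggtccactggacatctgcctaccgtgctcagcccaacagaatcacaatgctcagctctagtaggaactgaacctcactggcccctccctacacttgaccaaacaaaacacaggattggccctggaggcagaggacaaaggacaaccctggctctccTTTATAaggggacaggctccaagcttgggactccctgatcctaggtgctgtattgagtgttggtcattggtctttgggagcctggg
Cyp2d3: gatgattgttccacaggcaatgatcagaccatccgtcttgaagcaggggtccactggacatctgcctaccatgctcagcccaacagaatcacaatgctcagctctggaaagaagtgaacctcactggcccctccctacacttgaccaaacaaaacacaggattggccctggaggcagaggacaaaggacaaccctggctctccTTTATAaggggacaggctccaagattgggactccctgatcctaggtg
Cyp2d2: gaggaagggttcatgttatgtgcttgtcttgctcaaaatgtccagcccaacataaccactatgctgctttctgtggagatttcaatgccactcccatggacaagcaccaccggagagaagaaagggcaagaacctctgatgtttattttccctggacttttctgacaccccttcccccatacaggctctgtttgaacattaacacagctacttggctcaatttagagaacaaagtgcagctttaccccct
Cyp2d4: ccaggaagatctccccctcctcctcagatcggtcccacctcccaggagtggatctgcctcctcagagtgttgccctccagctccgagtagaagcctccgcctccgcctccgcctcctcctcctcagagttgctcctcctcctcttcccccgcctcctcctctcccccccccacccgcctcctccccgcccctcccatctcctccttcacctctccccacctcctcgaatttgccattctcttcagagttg

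Cyp2d5 and Cyp2d3 share a stretch of 211 columns with 205 identical bases (97.2%), 6 mismatches and no gap, which begins at base 1 of the Cyp2d5 window and base 40 of the Cyp2d3 window. Over whole windows these 2 were 70.9% identical and the other 5 pairs 42.9% to 48.9%. The letters TATAAA stand on the opposite strand 86 bases before the start in Cyp2d5 and 47 bases before it in Cyp2d3, and are not in the windows of Cyp2d2 and Cyp2d4. TATAAA occurs in 12.9% of the 33469 promoters and the nuclear receptor half-site AGGTCA, which none of the 5 windows shown holds, in 14.1%. Cyp2d5 and Cyp2d3, which share these letters, did not differ alike from healthy in the PAN plus LS-FMD section. Cyp2d5 was 2.96-fold (2.86 to 3.06) lower. Cyp2d3 was 1.04-fold (1.01 to 1.07) of healthy, short of the 1.5-fold rule. The median log2 fold over all features was 0.11 there, and the median of ratios moves log2 folds by -0.12. The direction for Cyp2d3 thus depends on the scaling. Reads from such close copies can be split between genes by the counting, so values of single Cyp2d genes are less certain than those of lone genes.

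Cyp2c23, the main arachidonic acid epoxygenase of rat kidney, stood at 1365 CPM in the healthy section, 815 CPM in the healthy plus LS-FMD section, 1103 CPM in the PAN section and 2106 CPM in the PAN plus LS-FMD section. The PAN plus LS-FMD section was highest and the healthy plus LS-FMD section lowest. PAN plus LS-FMD was 1.91-fold (1.88 to 1.94) above PAN and 1.54-fold (1.53 to 1.56) above healthy, and PAN was 0.808-fold (0.797 to 0.819) of healthy over the section but 1.503-fold (1.48 to 1.53) lower in the cortex and 1.02-fold (0.998 to 1.05) in the outer stripe. Its cortical level was 2127, 1438, 1415 and 2884 CPM in the 4 sections and its outer stripe level 1065, 873, 1091 and 1917 CPM, so the cortex lay above the outer stripe in each and least so after injection. The highest region was an S1 and S2 region in every section, at 2852, 2369, 1953 and 3688 CPM. S1 and S2 markers summed to 7259 CPM in the healthy cortex and 3734 CPM in the PAN cortex, which includes region 1. Their part in the Cyp2c23 level was not tested.

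Cyp2c24, a close relative, stood at 36.1, 16.98, 38.8 and 44.8 CPM in the healthy, healthy plus LS-FMD, PAN and PAN plus LS-FMD sections, but these sums hide opposite zones. In the cortex it was at 29.3, 13.6, 9.34 and 32.1 CPM, and in the outer stripe at 47.6, 26.99, 85.3 and 66.0 CPM. In the PAN section it was 3.13-fold (2.54 to 3.89) below healthy in the cortex and 1.79-fold (1.62 to 1.98) above it in the outer stripe, a call lost under the median of ratios, where the log2 fold was 0.22. The outer stripe stood 9.13-fold (7.42 to 11.3) above the cortex in the PAN section. Its highest PAN region, at 110 CPM (101 to 120, 501 UMIs), was the S3 region 2, led by Slc7a13 and Kap.

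Cyp2e1 stood at 267, 137, 108 and 185 CPM in the healthy, healthy plus LS-FMD, PAN and PAN plus LS-FMD sections and was highest in S1 and S2 regions in all 4, at 562, 234, 230 and 463 CPM. By zone it was highest in the outer stripe in the healthy plus LS-FMD section and in the cortex in the others. It was 2.47-fold (2.37 to 2.58) lower in PAN than in healthy and 1.71-fold (1.64 to 1.79) higher in PAN plus LS-FMD than in PAN, without reaching the healthy level. S1 and S2 markers summed to 4465, 2731 and 4631 CPM in the healthy, PAN and PAN plus LS-FMD sections, and their part was not tested. Cyp2j4, which acts on arachidonic acid too, kept its place in the outer stripe and stood at 25.2, 28.1, 25.4 and 36.1 CPM; no whole-section comparison passed 1.5-fold in CPM, and under the median of ratios PAN plus LS-FMD was 1.91-fold above PAN, past the rule. Cyp2t1 stood at 23.1, 27.5, 23.7 and 26.97 CPM and between 22.9 and 24.5 CPM in cortex, outer stripe and medulla of the healthy section.

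Cyp2s1, found in epithelia, had its highest level in the medulla in all 4 sections, where it stood at 30.1, 26.2, 50.4 and 28.2 CPM in the healthy, healthy plus LS-FMD, PAN and PAN plus LS-FMD sections, against 15.8, 23.3, 22.1 and 18.1 CPM in the whole sections. Its top region was led by thick ascending limb markers in 3 sections, with 63.7 CPM (51.0 to 78.7) in the healthy, 41.9 CPM (30.7 to 55.9) in the healthy plus LS-FMD and 71.8 CPM (60.6 to 84.4) in the PAN section, and by principal-cell markers in the PAN plus LS-FMD section at 50.01 CPM (39.1 to 63.0). Cyp2u1, a fatty acid hydroxylase, stood at 10.2, 13.3, 16.9 and 12.4 CPM with no fixed zone. Of the members between 20 and 200 UMIs, Cyp2f4, known for activating naphthalene, stood at 2.71, 0.869, 0.722 and 1.46 CPM and was highest in the cortex in each section; PAN was 3.76-fold (2.30 to 6.51) below healthy. Cyp2r1, a vitamin D hydroxylase, stood at 0.922, 0.316, 0.762 and 1.06 CPM, 2.92-fold (1.38 to 7.10) lower in healthy plus LS-FMD than in healthy. Cyp2j10 stood at 0.546, 1.11, 1.204 and 0.572 CPM. Cyp2b1, known for induction by phenobarbital in liver, had 24 UMIs in the healthy section, 19 in the healthy plus LS-FMD, none in the PAN section and 5 in the PAN plus LS-FMD section; set against the limit of 3 counts, PAN was at least 3.40-fold lower than healthy.

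Family 4 carries most P450 molecules of these kidneys, with 9340, 5638, 6030 and 12402 CPM in the healthy, healthy plus LS-FMD, PAN and PAN plus LS-FMD sections; 8 of its 16 members are named. Cyp4a2, a fatty acid omega-hydroxylase of the proximal tubule, has 2 features. The first (ENSRNOG00000030154) stood at 8475, 4731, 4791 and 11417 CPM: the healthy plus LS-FMD and PAN sections lay close together and the PAN plus LS-FMD section highest. PAN was 1.77-fold (1.76 to 1.78) below healthy, PAN plus LS-FMD was 2.38-fold (2.37 to 2.40) above PAN and 1.35-fold (1.34 to 1.35) of healthy, and healthy plus LS-FMD was 1.79-fold (1.78 to 1.80) below healthy. Its level in the outer stripe was 10093, 6758, 6011 and 13344 CPM and in the cortex 7580, 4016, 5089 and 10496 CPM. It was present in every spot of the healthy and PAN plus LS-FMD sections, 2866 and 2187 spots.

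The second Cyp4a2 feature (ENSRNOG00000009741) stood at 23.5 CPM (22.2 to 24.7, 1374 UMIs) in the healthy section, 7.38 CPM (6.36 to 8.52, 187 UMIs) in the healthy plus LS-FMD, 0.883 CPM (0.553 to 1.34, 22 UMIs) in the PAN and 2.35 CPM (1.87 to 2.91, 82 UMIs) in the PAN plus LS-FMD section. The healthy section was far above all others. PAN was 26.6-fold (17.5 to 42.6), PAN plus LS-FMD 10.0-fold (8.002 to 12.7) and healthy plus LS-FMD 3.18-fold (2.73 to 3.72) below it. The 2 features share a symbol, reads can be split between them, and the healthy section is the one counted with the later Space Ranger version; the part of either in this difference was not tested. Without the healthy section, PAN was 8.36-fold (5.36 to 13.7) below healthy plus LS-FMD.

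Cyp4a8, another fatty acid hydroxylase, went against its relative. It stood at 439 CPM in the healthy section, 549 CPM in the healthy plus LS-FMD, 961 CPM in the PAN and 659 CPM in the PAN plus LS-FMD section, highest in the section where Cyp4a2 was near its lowest. PAN was 2.19-fold (2.15 to 2.23) above healthy over the section, 1.73-fold (1.68 to 1.78) in the cortex and 3.10-fold (3.02 to 3.18) in the outer stripe; under the median of ratios the first 2 of these were no longer called (log2 fold 0.58 and 0.29). S3 markers went the other way there, as given above. PAN plus LS-FMD was 1.88-fold (1.83 to 1.93) below PAN in the outer stripe, a call lost under the median of ratios (log2 fold -0.41), and 0.686-fold (0.673 to 0.698) of PAN over the section. The PAN outer stripe held 1505 CPM, against 486, 777 and 801 CPM in the healthy, healthy plus LS-FMD and PAN plus LS-FMD sections. Its highest PAN region was the S3 region 2 with 1837 CPM over 386 spots, next to 1246 CPM in the S1 and S2 region 4, and the highest healthy region had 622 CPM.

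The Cyp4f enzymes, which hydroxylate leukotrienes and fatty acids, did not move as one. Cyp4f1 stood at 285, 197, 106 and 209 CPM in the healthy, healthy plus LS-FMD, PAN and PAN plus LS-FMD sections, 2.68-fold (2.58 to 2.80) lower in PAN than in healthy and 1.97-fold (1.88 to 2.06) higher in PAN plus LS-FMD than in PAN. Cyp4f5 stood at 8.20, 10.1, 20.7 and 10.6 CPM, 2.53-fold (2.23 to 2.87) higher in PAN than in healthy, with its highest PAN level, 32.3 CPM (26.0 to 39.6), in region 1. Cyp4f6 stood at 64.3, 67.3, 69.4 and 50.7 CPM and passed no whole-section comparison; in the outer stripe PAN plus LS-FMD was 1.61-fold (1.43 to 1.82) below PAN, a call lost under the median of ratios (log2 fold -0.19). Cyp4f18, with 5, 5, 15 and 6 UMIs, was too sparse to describe beyond its ratio of PAN to healthy, 7.05 (2.44 to 24.8). Cyp4b1, which acts on fatty acids and some foreign compounds, stood at 29.6, 55.7, 57.7 and 41.3 CPM, lowest in the healthy section; the healthy plus LS-FMD medulla held 96.1 CPM. Cyp4v3, a fatty acid hydroxylase, stood at 15.5, 20.3, 21.3 and 11.7 CPM and was highest in the medulla in all 4 sections, with 25.2, 31.5, 37.0 and 16.5 CPM there.

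**Figure D5:**
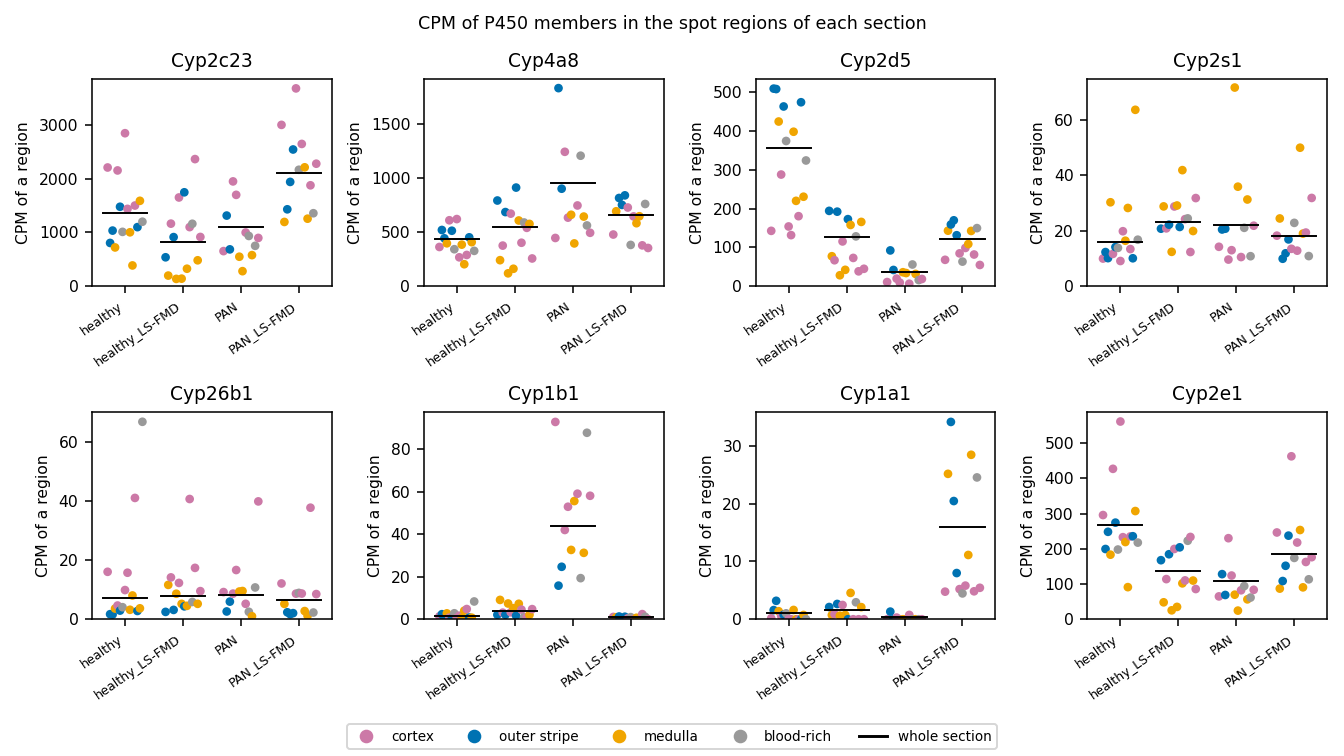
Level of 8 members in the regions of each section, in CPM, with points coloured by zone and a line at the whole section's level. Cyp2c23 and Cyp2e1 peak in cortical regions and Cyp2d5 in the outer stripe in all 4 sections, Cyp1b1 reaches 93.0 CPM in PAN regions and at most 9.11 CPM elsewhere, and Cyp1a1 reaches 34.1 CPM in PAN plus LS-FMD regions and at most 4.55 CPM elsewhere.

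The bile acid and cholesterol group has 6 members: 4 are named, Cyp39a1 lies between 20 and 200 UMIs, and Cyp7a1, the rate-limiting enzyme of bile acid synthesis in liver, was at 0 in all 4 sections. Cyp8b1 had 247 UMIs (4.22 CPM, 3.71 to 4.78) in the healthy section, 47 (1.86 CPM, 1.36 to 2.47) in the healthy plus LS-FMD, 2 (0.0802 CPM, 0.00972 to 0.290) in the PAN and 203 (5.81 CPM, 5.03 to 6.66) in the PAN plus LS-FMD section. It was almost not counted in the PAN section and present in the others, with the highest level after injection and diet. PAN was 52.6-fold (14.4 to 436) below healthy and PAN plus LS-FMD 72.4-fold (19.8 to 601) above PAN; both ratios rest on the 2 PAN UMIs. In the cortex PAN had none: it was at least 4.49-fold lower than healthy there, and PAN plus LS-FMD at least 8.47-fold higher than PAN. Cyp8b1 stood higher in the outer stripe than in cortex and medulla in all 4 sections, with 6.52, 2.87, 0.283 and 9.30 CPM, and both PAN UMIs lay in the S3 region 2. S3 markers were lower in PAN too, as given above, and the part of this in the Cyp8b1 level was not tested. Of 6 hepatocyte markers, the sum was 61.7, 50.4, 45.3 and 70.8 CPM, with Alb at 5, 0, 0 and 1 UMIs.

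Cyp7b1 stood at 7.46 CPM (6.78 to 8.19) in the healthy section, 9.51 CPM (8.35 to 10.8) in the healthy plus LS-FMD, 25.9 CPM (24.0 to 28.0) in the PAN and 8.04 CPM (7.12 to 9.03) in the PAN plus LS-FMD section, with PAN alone above the rest. PAN was 3.47-fold (3.07 to 3.93) above healthy, 4.09-fold (3.34 to 5.04) in the cortex and 2.92-fold (2.28 to 3.74) in the outer stripe. Like Cyp1b1 it was highest in PAN region 1, at 42.9 CPM (35.6 to 51.3), and lowest in the S3 region 2 at 15.4 CPM. Over regions its log level had a correlation with the fibroblast and matrix score of 0.74 in PAN and 0.15 to 0.35 in the others. The matrix markers given above were highest in the PAN section too, and their part was not tested. Cyp46a1 stood at 3.57 CPM (3.10 to 4.09), 10.5 CPM (9.31 to 11.9), 11.6 CPM (10.3 to 13.1) and 5.81 CPM (5.03 to 6.66) in the same order: the healthy plus LS-FMD and PAN sections overlapped, and both lay above the other 2. Its highest zone was the medulla in each section. Cyp27a1, the mitochondrial sterol hydroxylase, stood at 10.2, 17.8, 15.4 and 10.5 CPM and was highest in the medulla as well, with 15.4, 33.5, 23.3 and 12.9 CPM there. Cyp39a1, an oxysterol hydroxylase, stood at 2.54 CPM (2.15 to 2.99), 5.57 CPM (4.69 to 6.56), 1.08 CPM (0.714 to 1.58) and 2.26 CPM (1.79 to 2.82), highest after 1 diet cycle and lowest in PAN, which was 2.35-fold (1.55 to 3.68) below healthy.

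Of the 6 steroid hormone members Cyp21a1 is named, Cyp11a1 lies between 20 and 200 UMIs, 2 had fewer and 2 none. Cyp11a1 stood at 0.512 CPM (0.346 to 0.731, 30 UMIs) in the healthy section, 1.11 CPM (0.735 to 1.60, 28 UMIs) in the healthy plus LS-FMD, 4.81 CPM (3.99 to 5.76, 120 UMIs) in the PAN and 2.23 CPM (1.76 to 2.78, 78 UMIs) in the PAN plus LS-FMD section. Both injected rats lay above both uninjected ones. PAN was 9.40-fold (6.26 to 14.5) above healthy and PAN plus LS-FMD 4.36-fold (2.82 to 6.88). In PAN plus LS-FMD its highest region, with 9.12 CPM (5.65 to 13.9, 21 UMIs), was the S1 and S2 region 6. Cyp21a1, which hydroxylates progesterone in the adrenal gland, stood at 4.75, 4.82, 3.09 and 3.78 CPM. It was highest in the outer stripe, with 7.01, 7.67, 6.38 and 5.67 CPM, against 1.29, 2.27, 1.23 and 0.717 CPM in the cortex. Cyp21a1 was not confined to these zones, as part of its UMIs lay in the medulla or blood-rich zone. PAN was 1.54-fold (1.19 to 2.004) below healthy over the section and 0.910-fold (0.639 to 1.27) of it in the outer stripe. The 6 adrenal gland markers had 3, 4, 2 and 3 UMIs in all, 5, 3, 4 and 4 of them were at 0, and Nr5a1 and Dbh were at 0 in every section.

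Among the 3 retinoic acid hydroxylases, Cyp26b1 stood at 7.10 CPM (6.44 to 7.82), 7.86 CPM (6.80 to 9.03), 8.22 CPM (7.14 to 9.43) and 6.43 CPM (5.62 to 7.33) in the healthy, healthy plus LS-FMD, PAN and PAN plus LS-FMD sections, and neighbours in this order overlap. Its cortical level was 14.3, 16.9, 11.6 and 13.3 CPM, and its outer stripe level 2.07, 3.05, 3.83 and 2.05 CPM. It was highest in the podocyte-led region of 3 sections, with 40.8 CPM (26.9 to 59.4) in the healthy plus LS-FMD, 40.0 CPM (19.96 to 71.6, 28 spots) in the PAN and 37.9 CPM (27.8 to 50.3) in the PAN plus LS-FMD section; in the healthy section the podocyte-led region had 41.2 CPM and a region of 27 spots led by smooth muscle genes 67.0 CPM (42.9 to 99.7). Over the regions of a section its level had a correlation of 0.73 to 0.90 with the podocyte score and of 0.59 to 0.88 with the endothelial score. In the healthy section the endothelial value (0.80) lay above the podocyte value (0.76), so these correlations do not single out podocytes. Cyp26a1 stood at 0.922 CPM (0.693 to 1.203), 1.42 CPM (0.995 to 1.97), 3.45 CPM (2.76 to 4.26) and 1.80 CPM (1.38 to 2.31), with PAN highest, 3.74-fold (2.63 to 5.36) above healthy. Cyp26c1 was at 0 throughout.

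Cyp20a1, whose substrate is not settled, stood at 27.4, 38.3, 44.7 and 29.8 CPM with nearly the same level in cortex, outer stripe and medulla of each section, for instance 27.9, 26.0 and 29.0 CPM in the healthy one. Of the 6 members of family 3, the main drug-metabolising family of liver, 2 had 1 to 19 UMIs in their best section and 4 none.

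Genes that work with P450 enzymes were taken from 5 lists of 48 symbols, 44 of them in the tables; in PAN against healthy 9 of 42 tested were higher and 14 lower, and in PAN plus LS-FMD against PAN 9 of 40 were higher and 7 lower. Over all features the shares were 44.3% higher and 9.85% lower in the first comparison and 9.67% higher and 35.5% lower in the second; the lists below are for PAN against healthy. Among 7 electron donors none was higher and 2 were lower in PAN: Por, the reductase, stood at 171, 200, 151 and 163 CPM in the healthy, healthy plus LS-FMD, PAN and PAN plus LS-FMD sections, short of 1.5-fold, while Cyb5a, cytochrome b5, stood at 801, 518, 311 and 779 CPM. Of 14 regulators tested 3 were higher and 5 lower in PAN. The growth hormone receptor Ghr, among the lower ones, stood at 16.0, 13.0, 6.42 and 16.2 CPM. Hnf4a, a proximal tubule factor, stood at 356, 409, 268 and 461 CPM, short of 1.5-fold in PAN against healthy. Among 9 haem genes Hmox1 and Cpox were higher and Uros lower: Hmox1, which breaks haem down, stood at 3.52, 5.09, 22.7 and 10.7 CPM. Alas1, the first step of haem synthesis, stood at 53.9, 128, 74.7 and 79.6 CPM, short of 1.5-fold in PAN against healthy. Of 6 eicosanoid enzymes 4 were higher, Tbxas1, Ptgis, Ptgs1 and Ptgs2, and 2 lower, Ephx1 and Ephx2; Ephx2, which hydrolyses the epoxides that Cyp2c23 makes, stood at 168, 221, 53.0 and 174 CPM. Among 6 conjugation enzymes 4 were lower in PAN and none higher.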

How the data were processed

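Each of the 4 samples is 1 Visium section, deposited as a matrix of raw UMI counts per feature and spot; the authors made these counts with Space Ranger 2.0.1 (healthy) and 1.2.1 (other sections), per the file headers. The genome build is not given in the sources used here. Spots of at least 500 UMIs were kept. Clusters came from 2000 variable features without Cyp features, 30 principal components, 15 neighbours and Leiden resolution 1 (scanpy 1.11.5, leidenalg 0.10.2), and zones from 8 of the marker lists. Counts were summed per section, zone or region and scaled to CPM; intervals are exact at 95% (Python 3.11.15, numpy 2.4.6, scipy 1.17.1, pandas 2.3.3). Depth was 24924170 to 58568499 UMIs per section, and intervals cover counting error only. Members with at least 200 UMIs in at least 1 section were named, and those with fewer than 200 but at least 20 were named when past the fold rule. The others were counted, apart from Cyp4f18, Cyp1a2, Cyp7a1 and Cyp26c1, which the text names although they had fewer than 20 UMIs in every section. The members and lists were chosen with earlier results of these data known. The ratio computation was tested on simulated data. Promoters came from RefSeq (GRCr8), where 55 of 69 member symbols matched, and were aligned with Biopython 1.88; the 3 motifs named above were searched on both strands. Alternatives were scaling by the median of ratios, totals without mitochondrially encoded and haemoglobin features, other minimums of UMIs per spot and per feature, other ways to place spots in zones, and the healthy plus LS-FMD section as reference.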

Additional observations from a re-analysis of the deposited data

Results flagged for a closer look

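Cyp2c24 differed in opposite directions between zones of the same pair of sections: for PAN over healthy its log2 fold was -1.648 in the cortex and 0.8408 in the outer stripe. The difference between zones was not tested, and the outer stripe value fell under 1.5-fold when scaled by the median of ratios (0.22).

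Several members differed in opposite directions with the diet in the injected and the uninjected pair of rats, each with 1 section, and these differences were not tested. Higher with the diet after injection and lower with it in the uninjected rat were Cyp8b1 (log2 fold 6.177 against -1.185), Cyp2d5 (1.742 against -1.481), Cyp2d2 (1.659 against -1.179), Cyp4a2 ENSRNOG00000009741 (1.41 against -1.668), Cyp4a2 ENSRNOG00000030154 (1.253 against -0.8411), Cyp2c23 (0.9326 against -0.7452) and Cyp2e1 (0.7765 against -0.9622). Lower after injection and higher in the uninjected rat were Cyp1b1 (-5.721 against 1.224) and Cyp46a1 (-1.003 against 1.563). The median log2 fold over all features went the same way, -0.37 against 0.33. Under the median of ratios Cyp46a1 was no longer called lower with the diet after injection (-0.58). The diet ran for 6 cycles in the injected rat and 1 cycle in the other, and the time of analysis differed as well, so these cannot be told apart from the injection.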

How the results depend on the processing

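Of 194 alternative counts of higher or lower members 171 stayed within 1.5 times and 23 did not, and of 2029 alternative log2 folds of named members 1624 stayed close, 400 moved and 5 reversed. With the median of ratios, PAN against healthy had 7 higher members in the whole section, 5 in the cortex and 9 in the outer stripe, and 17 lower in the cortex; PAN plus LS-FMD against PAN had 3 lower in the whole section, 3 in the cortex and 7 in the outer stripe; PAN plus LS-FMD against healthy had 3 higher in the whole section, 4 higher and 5 lower in the cortex; healthy plus LS-FMD against healthy had 3 higher in the whole section, 2 in the cortex and 2 in the outer stripe. With the healthy plus LS-FMD section as the reference, PAN had 8 lower members in the whole section, and 6 higher and 6 lower in the cortex; reversed there were the log2 folds of Cyp4a2 ENSRNOG00000030154 (0.0182), Cyp2d2 (0.106, and 0.431 in the cortex), Cyp27a1 (-0.209) and, in the outer stripe, Cyp2s1 (-0.0554). For PAN plus LS-FMD against healthy, totals without mitochondrially encoded and haemoglobin features gave 4 higher, a minimum of 100 UMIs gave 4 higher in the cortex and 3 higher and 2 lower in the outer stripe, and zones from each spot's own score gave 3 higher in the outer stripe. Clustering the sections together gave, for healthy plus LS-FMD against healthy, 3 higher in the cortex and 8 lower in the outer stripe. For the outer stripe of the 2 comparisons with PAN it was not run, since PAN then had 1 outer stripe spot. The healthy and PAN plus LS-FMD sections then had 0 medulla spots. In these sections and in PAN the order of cortex, outer stripe and medulla could thus not be repeated under that setting. Beyond the settings' own construction the cause was not tested. No paired analysis was possible because each group has 1 section. Differences between rats cannot be separated from differences between groups, and members with under 20 UMIs over both sections were not compared.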
